A study of Mus musculus with 27 samples.

Results

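Genes of the extracellular matrix, of transforming growth factor beta (TGF-beta) signaling and of fibrosis were followed in mouse lung 1 day after whole thorax irradiation. The list held 39 genes, chosen by name with earlier results of these data known. Of these, 36 were measured among the 18194 genes of the arrays. Loxl2 was represented only by probe sets that another gene shares, and 2 further genes were not analysed here. Female mice of the inbred strains CBA/J, C57L/J and C57BL/6J were 10 to 12 weeks old when they received 0 Gy (sham irradiation), 12.5 Gy or 15 Gy of X-rays to the thorax. Lungs were taken 24 hours later, and the RNA of the right upper lobe of each mouse was hybridized to an array of its own, so that 27 arrays make up 9 groups of 3. None of the mice carried a transgene, and strain and dose were the differences between groups given in the labels. The labels describe the late injury of CBA/J as pneumonitis alone, that of C57L/J as pneumonitis mixed with fibrosis, and that of C57BL/6J as fibrosis with mild pneumonitis.

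The lung matrix is built from fibrillar collagens, elastic fibres and basement membranes that fibroblasts and neighbouring cells secrete, and matrix metalloproteinases and their tissue inhibitors (TIMPs) remodel it. TGF-beta is secreted in a latent form, is released from the matrix, binds a pair of receptor kinases and signals through SMAD proteins to collagen, fibronectin and contractile genes. In irradiated lung, fibrosis with collagen deposition is a late event that develops over months, and these arrays describe the first day.

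Each gene was read from its brightest probe set, a group of short probes designed against its transcript, as log2 of the intensity. A level on this scale can be compared between arrays for the same gene and not between genes. A difference of 1 is a doubling of intensity, since the scale is log2. Genes were called at a Benjamini-Hochberg adjusted p under 0.05 over all 18194 genes in limma. The dose response of all strains together was fitted with strain and dose as additive terms, so that each dose was represented by 9 arrays.

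Array quality and the irradiation itself were checked first. The median intensity ran between 128 and 167 over the 27 arrays. Cdkn1a, the p53 target that arrests the cell cycle, was 3.18 ± 0.12 higher at 15 Gy and 3.15 ± 0.12 higher at 12.5 Gy than in sham-irradiated lungs on the log2 scale (standard error), and all 5 measured p53 targets of the check list passed at both doses. Lung epithelium markers, among them surfactant proteins, averaged between 13.59 and 14.22 on every array. On 9 arrays, however, the skeletal muscle transcripts Ckm and Acta1 averaged 2.75 to 6.17 above the median array on the log2 scale, against at most 1.19 on the other 18 arrays. They were 2 of the CBA/J sham arrays, 2 of CBA/J at 12.5 Gy, 1 of C57L/J at 15 Gy, 2 of C57BL/6J at 12.5 Gy and 2 of C57BL/6J at 15 Gy. Keratins of squamous epithelium were also higher on these arrays (Krt4 by 7.01 ± 0.49, Krt13 by 7.60 ± 0.81). Values are given with and without the 9 arrays where a call of a member differs.

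At 15 Gy, 8 of the 36 members (22.2%) passed the test against sham irradiation, compared with 11.8% of all genes. Of these, 4 were higher (4.83% of all genes were) and 4 were lower (6.94% of all genes were). The higher ones were the gelatinase Mmp2, the inhibitor Timp1, fibronectin (Fn1) and the collagen V chain Col5a2. The lower ones were the growth factors Tgfb1 and Tgfb2 and the inhibitors Timp2 and Timp3. At 12.5 Gy, 4 of 36 members (11.1%) passed, compared with 9.04% of all genes. Mmp2, Col5a2 and the proteoglycan-cleaving protease Adamts15 were higher and Timp2 was lower, with 3.17% of all genes called higher and 5.86% called lower. The median member difference was -0.02 at 15 Gy and -0.00095 at 12.5 Gy, beside -0.0087 and -0.014 over all genes. In whole lung, fewer cells of a type and less RNA per cell cannot be told apart.

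**Figure D1:**
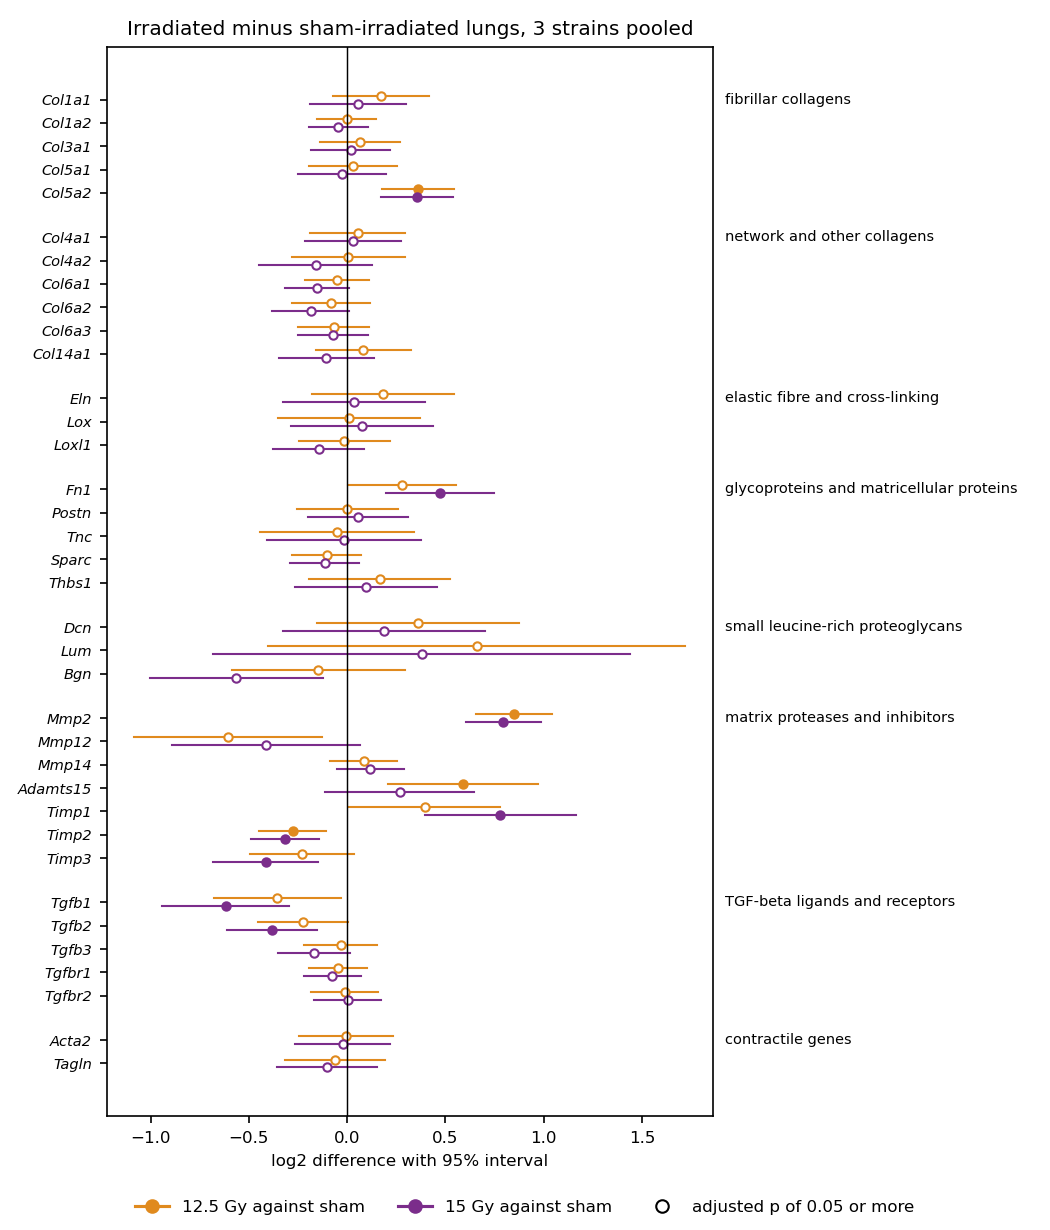
Differences of the 36 measured genes between irradiated and sham-irradiated lungs, in log2 units on the horizontal axis, with points for the fitted difference over 27 arrays, lines for its 95% interval and filled points for an adjusted p under 0.05. Filled points are found for Mmp2, Col5a2 and Timp2 at both doses, for Fn1, Timp1, Timp3, Tgfb1 and Tgfb2 at 15 Gy and for Adamts15 at 12.5 Gy, while the intervals of Col1a1, Col1a2 and Col3a1 span 0.

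The promoters of Timp1, Tgfb1 and Tgfb2 are shown as examples of secreted regulators called in opposite directions at 15 Gy, Timp1 higher and both ligands lower. These calls were lost without the 9 arrays with skeletal muscle transcripts. RefSeq promoter windows of 300 bases, 250 before the transcription start and 50 from it, were matched for 24 members. They included 5 of the 9 members called at either dose, and the others of these 5 are not shown. Capitals mark motif matches on either strand, with the window read 5′ to 3′ along the gene. On GRCm38.p6 the Timp1 window is chrX:20869916-20870215 on the + strand, the Tgfb1 window is chr7:25686752-25687051 on the + strand and the Tgfb2 window is chr1:186705940-186706239 on the - strand.
Timp1: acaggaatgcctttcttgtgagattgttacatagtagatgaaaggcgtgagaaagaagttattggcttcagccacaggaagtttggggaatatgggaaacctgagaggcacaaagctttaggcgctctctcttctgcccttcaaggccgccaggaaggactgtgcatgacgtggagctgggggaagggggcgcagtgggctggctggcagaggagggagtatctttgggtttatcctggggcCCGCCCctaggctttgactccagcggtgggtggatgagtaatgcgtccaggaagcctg
Tgfb1: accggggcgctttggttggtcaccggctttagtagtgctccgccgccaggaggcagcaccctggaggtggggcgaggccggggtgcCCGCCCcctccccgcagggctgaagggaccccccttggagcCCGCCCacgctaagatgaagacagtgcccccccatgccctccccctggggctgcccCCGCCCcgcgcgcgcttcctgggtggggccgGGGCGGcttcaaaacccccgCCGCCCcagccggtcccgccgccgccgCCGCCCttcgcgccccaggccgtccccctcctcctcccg
Tgfb2: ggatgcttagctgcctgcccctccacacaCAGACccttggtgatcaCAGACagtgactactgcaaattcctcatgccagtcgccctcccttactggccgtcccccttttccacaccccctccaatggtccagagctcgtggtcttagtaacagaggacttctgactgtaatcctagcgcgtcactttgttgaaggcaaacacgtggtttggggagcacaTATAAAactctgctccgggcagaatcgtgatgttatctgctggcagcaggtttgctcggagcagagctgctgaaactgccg

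Motifs searched on both strands were the AP-1 site TGANTCA, the SMAD box CAGAC, the GC box GGGCGG and the TATA box TATAAA, none of which contains another. The Timp1 window held 1 GC box, from -8 to -3 relative to the start. The Tgfb1 window held 6 GC boxes, and 35.7% of all 32851 promoter windows hold at least 1. The Tgfb2 window held 2 SMAD boxes, from -221 to -217 and from -204 to -200, and a TATA box from -31 to -26. A SMAD box is found in 49.6% of all windows and a TATA box in 13.6%. The AP-1 letters, found in 7.81% of all windows, were not in these 3 windows. A match is a stretch of letters and was not tested as a binding site.

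Mmp2 was the member with the lowest adjusted p against sham irradiation over the strains. It encodes gelatinase A, which degrades denatured collagen and basement membrane collagen. In CBA/J lungs its log2 intensities were 11.82, 11.69 and 11.61 at 0 Gy, 12.63, 12.86 and 12.34 at 12.5 Gy, and 12.41, 12.48 and 12.68 at 15 Gy. In C57L/J lungs they were 11.24, 11.42 and 11.25 at 0 Gy, 12.22, 12.04 and 12.33 at 12.5 Gy, and 12.03, 12.26 and 12.05 at 15 Gy. In C57BL/6J lungs they were 11.22, 11.82 and 11.15 at 0 Gy, 12.31, 12.20 and 11.96 at 12.5 Gy, and 12.47, 11.90 and 12.08 at 15 Gy. Within every strain, each irradiated array lay above each sham array at both doses, so that groups did not overlap in 6 of 6 comparisons. In single comparisons between 6.82% and 11.8% of all genes had irradiated groups wholly above sham, and the share with all 6 was not counted. Over the strains, Mmp2 was 1.80-fold higher at 12.5 Gy (log2 difference 0.85 ± 0.09, standard error, adjusted p = 7.3e-07) and 1.74-fold higher at 15 Gy (0.80 ± 0.09, adjusted p = 2.47e-06). The other probe set of Mmp2 gave 0.79 ± 0.09 at both doses. Without the 9 arrays with skeletal muscle transcripts the difference was 0.84 at 12.5 Gy and 0.89 at 15 Gy, and both passed.

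**Figure D2:**
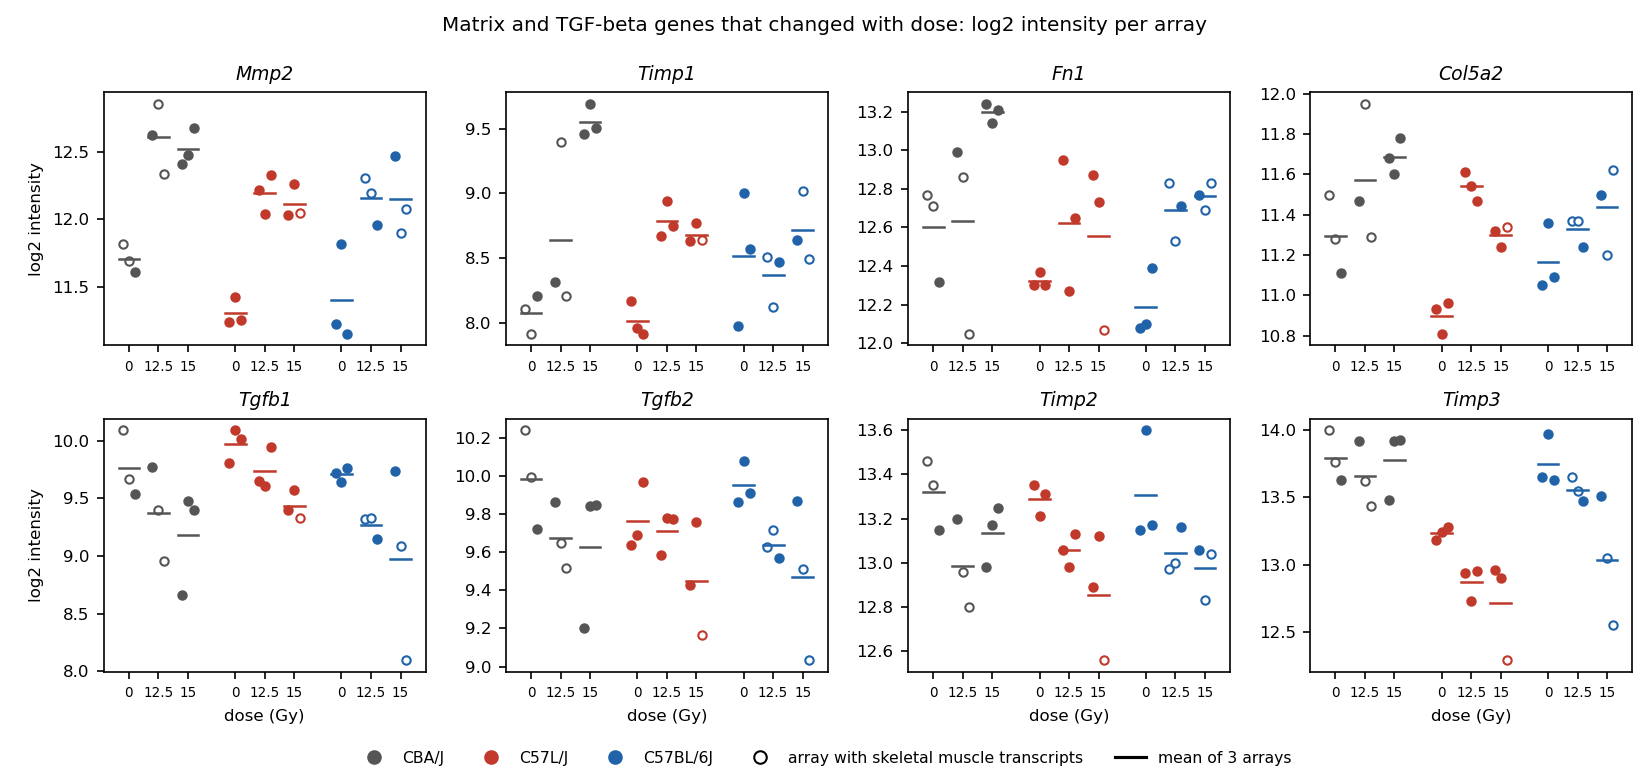
Log2 intensity per array (vertical axis, own scale for each gene) against dose in Gy for 8 genes that changed with dose, with colours for strains, open circles for arrays with skeletal muscle transcripts and bars for the mean of 3 arrays. For Mmp2 every irradiated array of a strain lies above that strain's sham arrays, and Timp1 is highest in CBA/J at 15 Gy, where the 3 arrays lie between 9.46 and 9.69.

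Timp1, a secreted inhibitor of metalloproteinases that rises in injured lung, had its highest levels in CBA/J at 15 Gy. In CBA/J lungs its log2 intensities were 8.11, 7.92 and 8.21 at 0 Gy, 8.32, 9.40 and 8.21 at 12.5 Gy, and 9.46, 9.69 and 9.51 at 15 Gy. In C57L/J lungs they were 8.17, 7.97 and 7.92 at 0 Gy, 8.67, 8.94 and 8.75 at 12.5 Gy, and 8.63, 8.78 and 8.64 at 15 Gy. In C57BL/6J lungs they were 7.97, 9.00 and 8.57 at 0 Gy, 8.51, 8.12 and 8.47 at 12.5 Gy, and 8.64, 9.02 and 8.49 at 15 Gy. The irradiated arrays lay above all sham arrays at both doses in CBA/J (at 12.5 Gy only just, 8.211 against 8.209) and in C57L/J, whereas in C57BL/6J they overlapped the sham arrays at both doses. At 15 Gy over the strains Timp1 was 1.72-fold higher (0.78 ± 0.19, adjusted p = 0.00679), and at 12.5 Gy the difference was 0.39 (adjusted p = 0.215). Without the 9 arrays with skeletal muscle transcripts the 15 Gy difference was 0.77 with an adjusted p of 0.0518, and the call was lost.

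Fibronectin (Fn1) is a glycoprotein to which cells and collagen attach during repair. In CBA/J lungs its log2 intensities were 12.77, 12.71 and 12.32 at 0 Gy, 12.99, 12.86 and 12.05 at 12.5 Gy, and 13.24, 13.14 and 13.21 at 15 Gy. In C57L/J lungs they were 12.30, 12.37 and 12.30 at 0 Gy, 12.95, 12.27 and 12.65 at 12.5 Gy, and 12.87, 12.73 and 12.07 at 15 Gy. In C57BL/6J lungs they were 12.08, 12.10 and 12.39 at 0 Gy, 12.83, 12.53 and 12.71 at 12.5 Gy, and 12.77, 12.69 and 12.83 at 15 Gy. The lowest irradiated arrays, at 12.05 in CBA/J and 12.07 in C57L/J, both carried skeletal muscle transcripts. Fn1 was 1.39-fold higher at 15 Gy over the strains (0.47 ± 0.13, adjusted p = 0.0208) and differed by 0.28 at 12.5 Gy (adjusted p = 0.217). Without the 9 arrays it passed at both doses, with differences of 0.62 at 15 Gy (adjusted p = 0.00286) and 0.43 at 12.5 Gy (adjusted p = 0.0387).

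Among the 5 fibrillar collagen chains, only Col5a2, which takes part in starting collagen fibrils, was called. Its log2 intensities were lowest at 10.81, median 11.09 and highest at 11.50 over 9 sham arrays, 11.24, 11.47 and 11.95 over 9 arrays at 12.5 Gy, and 11.20, 11.50 and 11.78 over 9 arrays at 15 Gy. Of the irradiated arrays, 9 of 9 at 15 Gy and 8 of 9 at 12.5 Gy lay above the sham mean of their strain. Col5a2 was 1.28-fold higher at each dose, with log2 differences of 0.36 ± 0.09 at 12.5 Gy (adjusted p = 0.0107) and 0.35 ± 0.09 at 15 Gy (adjusted p = 0.00977). Its second probe set gave 0.31 at 12.5 Gy and 0.22 at 15 Gy, and neither passed over all probe sets (adjusted p = 0.0822 and 0.219). The call was kept at both doses without the 9 arrays with skeletal muscle transcripts.

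The main collagens of fibrotic scar had dose differences with intervals that spanned 0. Col1a1 differed by 0.05 at 15 Gy (95% interval -0.19 to 0.30), Col1a2 by -0.05 (-0.20 to 0.10) and Col3a1 by 0.02 (-0.18 to 0.22). Col1a1 averaged 10.53 ± 0.16, 10.73 ± 0.48 and 10.54 ± 0.04 at 0, 12.5 and 15 Gy in CBA/J lungs (SD, n = 3 each). It averaged 10.48 ± 0.14, 10.97 ± 0.19 and 10.70 ± 0.18 in C57L/J lungs and 10.79 ± 0.24, 10.61 ± 0.32 and 10.72 ± 0.14 in C57BL/6J lungs at the same doses. The dimmer of the probe sets of Col3a1 gave 0.34 at 15 Gy, with an adjusted p of 0.127 over all probe sets. These intervals are unadjusted, and true differences within them are not excluded. A call also asked for an adjusted p under 0.05 over all genes, so the intervals are not limits of detection.

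None of the 6 network and other collagens passed at either dose. Col4a1 and Col4a2, the chains of basement membrane collagen IV, differed by 0.03 and -0.16 at 15 Gy, and Col6a1, Col6a2 and Col6a3, the chains of beaded-filament collagen VI, by -0.15, -0.19 and -0.07. Col14a1, which decorates fibrils, differed by -0.11. Of the 3 measured genes of elastic fibres and cross-linking, elastin (Eln) differed by 0.03, and the lysyl oxidases Lox and Loxl1, which cross-link collagen and elastin, by 0.08 and -0.15. The lowest adjusted p of these 9 genes at 15 Gy was 0.229, for Col6a2.

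Of the 5 measured glycoproteins and matricellular proteins only Fn1 was called. Periostin (Postn), a matrix protein of fibrotic tissue, differed by 0.06 at 15 Gy (95% interval -0.20 to 0.31), tenascin C (Tnc) by -0.02, osteonectin (Sparc) by -0.11 and thrombospondin 1 (Thbs1), an activator of latent TGF-beta, by 0.10. Alpha smooth muscle actin (Acta2) and transgelin (Tagln), contractile genes of smooth muscle and myofibroblasts, differed by -0.02 (-0.26 to 0.22) and -0.10 (-0.36 to 0.15) at 15 Gy. Of 8 other smooth muscle markers none passed at either dose.

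The TGF-beta ligands Tgfb1 and Tgfb2 were lower at 15 Gy. In CBA/J lungs the log2 intensities of Tgfb1, the main ligand of fibrosis, were 10.09, 9.67 and 9.53 at 0 Gy, 9.77, 9.40 and 8.96 at 12.5 Gy, and 8.66, 9.48 and 9.40 at 15 Gy. In C57L/J lungs they were 9.80, 10.09 and 10.01 at 0 Gy, 9.65, 9.61 and 9.94 at 12.5 Gy, and 9.40, 9.57 and 9.33 at 15 Gy. In C57BL/6J lungs they were 9.72, 9.64 and 9.76 at 0 Gy, 9.32, 9.33 and 9.15 at 12.5 Gy, and 9.73, 9.09 and 8.10 at 15 Gy. Of 9 arrays at each dose, 8 lay below the sham mean of their strain, the exceptions being 1 CBA/J array at 12.5 Gy and 1 C57BL/6J array at 15 Gy. Tgfb1 was 0.651-fold its sham level at 15 Gy (-0.62 ± 0.16, adjusted p = 0.00992) and differed by -0.35 at 12.5 Gy (adjusted p = 0.178). A dimmer probe set gave -0.79 ± 0.18 at 15 Gy.

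Tgfb2, another ligand, had log2 intensities of lowest 9.64, median 9.91 and highest 10.24 at 0 Gy, 9.52, 9.65 and 9.86 at 12.5 Gy, and 9.03, 9.51 and 9.87 at 15 Gy. No array at 15 Gy lay above the sham mean of its strain. The difference at 15 Gy was -0.38 ± 0.11 (adjusted p = 0.0246), and the call was lost when any of 4 of the 27 arrays was left out (highest adjusted p = 0.0544). Of its 4 probe sets, 3 were lower at 15 Gy and 1 differed by 0.07 (adjusted p = 0.871 over all probe sets). Tgfb3 differed by -0.17 (adjusted p = 0.248), and the receptors Tgfbr1 and Tgfbr2 by -0.07 and 0.00195, with 95% intervals of -0.22 to 0.07 and -0.17 to 0.17.

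The lower calls were lost without the 9 arrays with skeletal muscle transcripts, in a fit that also had fewer arrays. Without the 9 arrays the 15 Gy difference was -0.37 for Tgfb1 (adjusted p = 0.193) and -0.16 for Tgfb2 (adjusted p = 0.506). It was -0.21 for Timp2 (adjusted p = 0.204) and -0.19 for Timp3 (adjusted p = 0.347), so that 0 of 36 members were called lower and 3 were called higher (Mmp2, Fn1 and Col5a2), against 4.18% and 2.78% of all genes. At 12.5 Gy 4 were then called higher (Mmp2, Fn1, Col5a2 and Adamts15), against 1.45% of all genes, and 0 lower, against 2.87%. Timp2 differed by -0.16 there (adjusted p = 0.386). Between arrays with and without skeletal muscle transcripts, fitted in limma with strain and dose, Tgfb1 differed by -0.21 and Tgfb2 by -0.15. Timp2 differed by -0.17 and Timp3 by -0.31 in that fit, and none of these genes was called (adjusted p from 0.101 to 0.426). Among the 3 arrays with skeletal muscle transcripts at 15 Gy were the lowest Tgfb2 array of C57L/J (9.17) and the lowest of C57BL/6J (9.03). The lowest Tgfb2 array of CBA/J at 15 Gy (9.20) was not among the 9 arrays, nor was any other CBA/J array at this dose. Of 8 endothelial markers, 4 (Kdr, Tek, Tie1 and Ramp2) were called lower at 15 Gy, beside 6.94% of all genes, and 1 had a positive difference. The list median was -0.47, and the mean level ranged between 11.32 and 12.51 at 15 Gy against 11.95 and 12.66 at 0 Gy. With strain and dose in the fit, all 8 were lower on arrays with skeletal muscle transcripts, from -0.39 (Cldn5) to -0.25 (Pecam1), and none was called there. Of 10 fibroblast markers, Thy1 (-0.95 ± 0.26) and Pdgfrb (-0.42 ± 0.11) were called lower at 15 Gy, beside 6.94% of all genes. Positive differences were found for 4 of the 10, at most 0.46 and none called, and the list median was -0.14. The mean level of the list ranged between 11.05 and 11.43 at 15 Gy against 11.19 and 11.44 at 0 Gy. No marker of either list was at the floor on any array. The part of these markers in the lower levels was not tested.

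**Figure D3:**
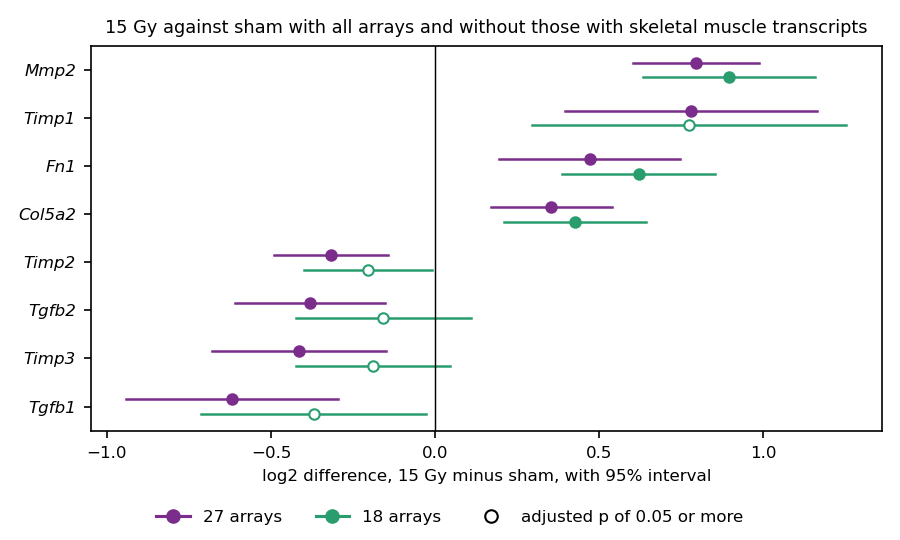
Fitted log2 differences between 15 Gy and sham irradiation (horizontal axis) with 95% intervals for the 8 genes called at 15 Gy, over all 27 arrays and over the 18 arrays without skeletal muscle transcripts, with open circles for an adjusted p of 0.05 or more. Mmp2, Fn1 and Col5a2 stay filled, and Tgfb1 lies at -0.62 with all arrays and at -0.37 without the 9.

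Timp2 and Timp3, which inhibit metalloproteinases and, in the case of Timp3, are bound to the matrix, were lower after irradiation. Timp2 had log2 intensities of lowest 13.15, median 13.31 and highest 13.60 at 0 Gy, 12.80, 13.00 and 13.20 at 12.5 Gy, and 12.56, 13.04 and 13.25 at 15 Gy. All 9 arrays at each dose lay below the sham mean of their strain. The differences were -0.28 ± 0.08 at 12.5 Gy (adjusted p = 0.0362) and -0.32 ± 0.08 at 15 Gy (adjusted p = 0.0134). The 12.5 Gy call was lost when any of 10 of the 27 arrays was left out (highest adjusted p = 0.0819), and with the mean of its probe sets the difference was 0.0153 at 12.5 Gy (adjusted p = 0.962) and -0.14 at 15 Gy (adjusted p = 0.468). The 6 probe sets of Timp2 did not act alike, since at 15 Gy the second brightest gave -0.26 ± 0.07 and another bright one 0.05 ± 0.09. Timp3 had intensities of 13.18, 13.63 and 14.00 at 0 Gy, 12.73, 13.47 and 13.92 at 12.5 Gy, and 12.29, 13.05 and 13.93 at 15 Gy. Over the strains its doses overlapped, although within C57L/J at both doses and within C57BL/6J at 15 Gy the irradiated arrays lay wholly below sham. The difference was -0.41 ± 0.13 at 15 Gy (adjusted p = 0.0356) and -0.23 at 12.5 Gy, and the 15 Gy call was lost when any of 10 of the 27 arrays was left out (highest adjusted p = 0.0771). Timp3 averaged 13.78 at 15 Gy and 13.80 at 0 Gy in CBA/J lungs, 12.71 at 15 Gy and 13.23 at 0 Gy in C57L/J lungs, and 13.04 at 15 Gy and 13.75 at 0 Gy in C57BL/6J lungs. A difference of these changes between strains was not called.

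Adamts15, a protease that cleaves the proteoglycans versican and aggrecan, was called at 12.5 Gy alone. At 12.5 Gy the difference was 0.59 ± 0.18 (adjusted p = 0.0445) and at 15 Gy 0.27 (adjusted p = 0.4). The 12.5 Gy call was lost when any of 17 of the 27 arrays was left out (highest adjusted p = 0.0872). Mmp14, the membrane-bound activator of Mmp2, differed by 0.12 at 15 Gy and the macrophage elastase Mmp12 by -0.41, and neither passed. No member differed between 15 and 12.5 Gy by limma (0% of all genes did). At an unadjusted p under 0.05 1 member did, Timp1 (log2 difference 0.39), beside 4.35% of all genes.

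The small leucine-rich proteoglycans decorin (Dcn), lumican (Lum) and biglycan (Bgn), which bind collagen fibrils, showed wide spread between arrays and no call. Lumican ran between 9.50 and 12.91 with a median of 10.87 on the 9 arrays with skeletal muscle transcripts, against 8.49 to 10.40 with a median of 9.32 on the 18 without. Decorin ran between 12.59 and 13.89 against 11.83 and 12.96. With strain and dose in the fit, Lum was 1.84 ± 0.31 higher (adjusted p = 0.00082) and Dcn 0.81 ± 0.17 higher (adjusted p = 0.0063) on arrays with skeletal muscle transcripts, and these 2 of 36 members passed, compared with 2.69% of all genes called higher. No member was called lower, compared with 0.995% of all genes. Biglycan was between 13.08 and 13.91 on 25 arrays and at 11.96 and 11.69 on the other 2, a CBA/J and a C57BL/6J array at 15 Gy that were also the lowest Tgfb1 arrays of their strains.

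Within a strain, where each fit had 3 irradiated and 3 sham arrays, 1 member was called in 6 comparisons. The count depended on the fit, since one fit of all 27 arrays called 2 and 3 members in CBA/J at 12.5 and 15 Gy, 4 and 1 in C57L/J and 1 and 1 in C57BL/6J, and limma with trend and robust settings called 7 in C57L/J at 12.5 Gy. The shares of all genes called by these other fits are not given, so their counts cannot be set against a background. At 15 Gy in CBA/J, Timp1 was 2.78-fold higher (1.48 ± 0.13, adjusted p = 0.0189), and 1.01% of all genes were called. Of all genes 0.418% were called higher, and 15.6% had an unadjusted p under 0.05. The call was lost when any of the 6 arrays was left out (adjusted p = 0.0593 to 0.0931). With the arrays that carry skeletal muscle transcripts left out, 1 sham array remained, which was assumed to vary like the 3 irradiated arrays, and the difference was 1.34 (adjusted p = 0.238). In CBA/J at 12.5 Gy no member was called by limma, compared with 0.033% of all genes, and 2 had an unadjusted p under 0.05, compared with 10.6%. In C57L/J no member was called at 12.5 Gy (0.517% of all genes were) or 15 Gy (0% were), and 9 and 4 had an unadjusted p under 0.05, compared with 13% and 7.44%. In C57BL/6J no member was called at 12.5 Gy (0.484%) or 15 Gy (0.066%), and 4 and 5 had an unadjusted p under 0.05, compared with 10.8% and 12.5%. The random variance t test that the study's methods name called the same numbers at its adjusted p, 1 in CBA/J at 15 Gy and 0 elsewhere.

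Irradiated groups that did not overlap sham were counted next. In CBA/J 2 members lay wholly above sham at 12.5 Gy and 5 at 15 Gy, where 7.56% and 11.8% of all genes did, and 3 and 6 lay wholly below, where 11.3% and 12.7% did. In C57L/J 9 members lay above at 12.5 Gy and 4 at 15 Gy (9.78% and 7.61% of all genes), and 2 and 4 lay below (11.3% and 9.02%). In C57BL/6J 3 members lay above at each dose (6.82% and 8.92%), and 4 and 3 lay below (11.3% and 11.9%). After Mmp2, Timp1 lay wholly above sham most often, in 4 of 6 comparisons, and Col5a2, Fn1 and Adamts15 did in 3 of 6 each. Tgfb1, Timp2 and Timp3 lay wholly below in 3 of 6 each. The share of all genes with as many such comparisons was not counted, and both doses of a strain share its sham arrays.

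At an unadjusted p under 0.01, the limit of the study's methods, 6 members were higher and none lower in C57L/J at 12.5 Gy, where 1.68% and 2.85% of all genes were. They were Mmp2 (0.89 ± 0.12), Timp1 (0.77 ± 0.13), Col5a2 (0.64 ± 0.10), Mmp14 (0.50 ± 0.12), Adamts15 (0.85 ± 0.21) and elastin (0.97 ± 0.21), with adjusted p between 0.0582 and 0.206. Elastin, the core of elastic fibres, had log2 intensities of 10.71, 11.30 and 11.31 in these lungs, against 10.19, 10.30 and 9.90 in C57L/J sham lungs. In C57L/J at 15 Gy it was at 9.89, 10.86 and 10.17, overlapping the sham arrays. In CBA/J, Fn1, Mmp2 and Timp1 were higher at 15 Gy and Mmp2 at 12.5 Gy at this limit, where 2.41% and 0.94% of all genes were. In C57BL/6J, Adamts15 was higher at both doses and Fn1 at 15 Gy, where 0.978% of all genes were higher at 12.5 Gy and 1.59% at 15 Gy, and none was lower (2.67% and 2.22%). In C57L/J at 15 Gy, Mmp2 and Timp1 were higher and none lower (0.786% and 1.08%). The shared sham arrays of a strain enter both of its dose comparisons.

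Mmp12, the macrophage elastase that cleaves elastin, was the only member lower at this limit within a strain, in CBA/J. Its log2 intensities in CBA/J lungs were 8.20, 7.95 and 8.79 at 0 Gy, 6.70, 6.95 and 6.39 at 12.5 Gy, and 7.39, 6.95 and 7.05 at 15 Gy, and the irradiated groups lay wholly below sham. The difference was -1.63 ± 0.27 at 12.5 Gy (adjusted p = 0.142) and -1.19 ± 0.26 at 15 Gy (adjusted p = 0.128), and 2.34% and 3.2% of all genes were lower at the unadjusted limit. In C57L/J lungs Mmp12 averaged 6.19, 6.18 and 6.08 at 0, 12.5 and 15 Gy, and in C57BL/6J lungs 7.37, 7.20 and 7.43. The C57L/J levels were close to 6, the limit of the filter on low values. Of 7 measured alveolar macrophage markers none was called in CBA/J; 2 had positive differences at 12.5 Gy and 3 at 15 Gy, with list medians of -0.43 and -0.35, and their part in the Mmp12 levels was not tested.

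The strain by dose interaction, which asks whether dose effects differ between strains, called no member by limma (0% of all genes were called). At an unadjusted p under 0.05 it met 5 members (the 4 named next and Mmp12), beside 5.78% of all genes. At p under 0.01 it met elastin, Loxl1, Mmp14 and Timp1, beside 1.43% of all genes, with adjusted p between 0.461 and 0.657. For elastin the change at 12.5 Gy was 1.34 ± 0.32 larger in C57L/J than in C57BL/6J, and for Mmp14 it was 0.61 ± 0.15 larger. For Timp1 the change at 15 Gy was 1.28 ± 0.36 larger in CBA/J than in C57BL/6J.

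**Figure D4:**
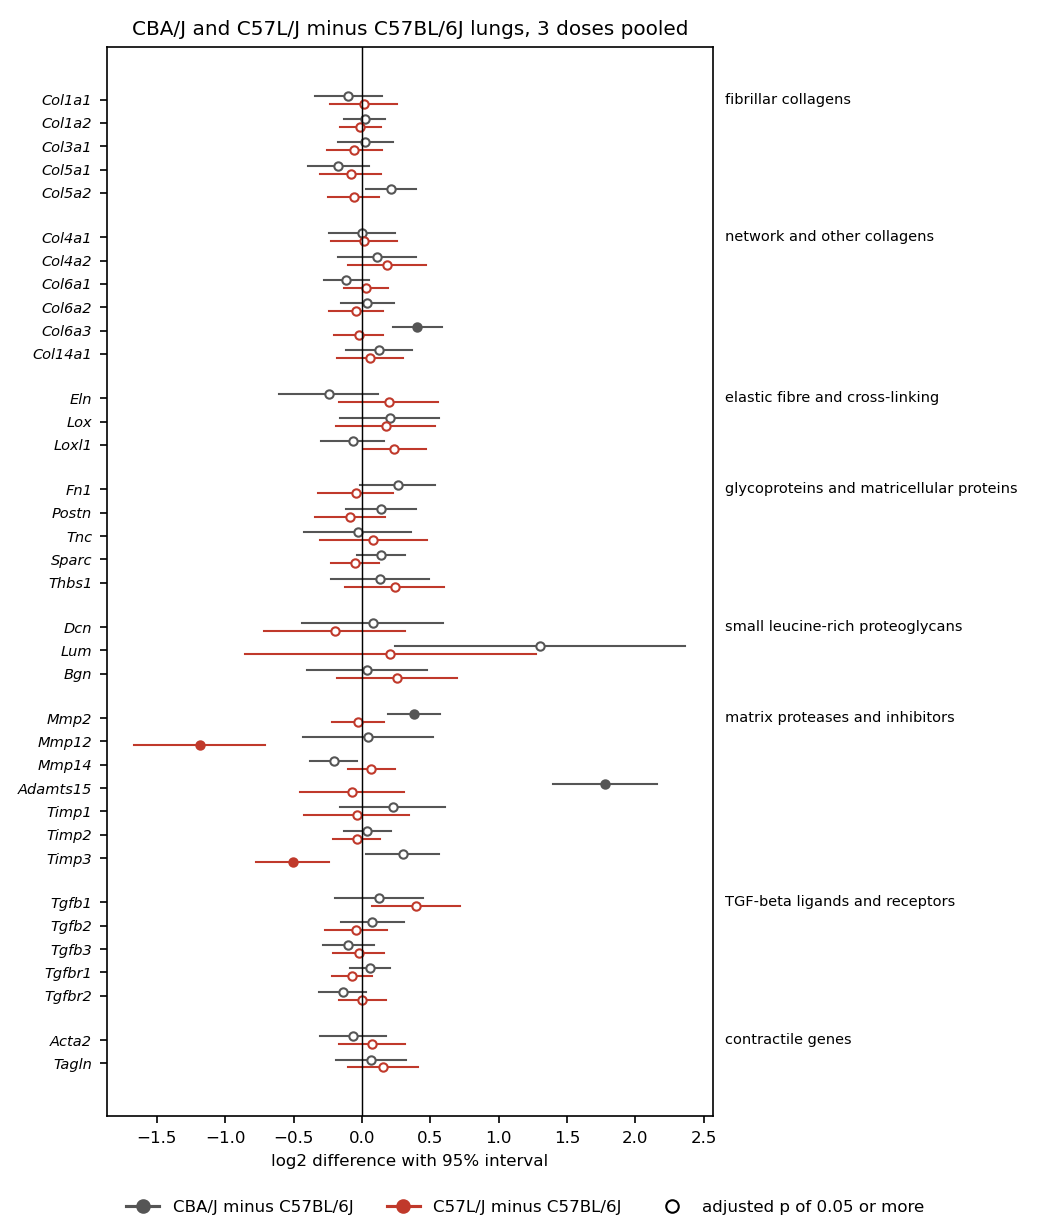
Differences of the 36 measured genes of CBA/J and C57L/J lungs from C57BL/6J lungs in log2 units (horizontal axis), over 3 doses and 27 arrays, with 95% intervals and filled points for an adjusted p under 0.05. The largest value is that of Adamts15 in CBA/J (1.78), and Mmp12 (-1.19) and Timp3 (-0.51) are the filled points of C57L/J.

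Over the doses, CBA/J and C57BL/6J lungs differed in 3 members, all higher in CBA/J, compared with 5.71% of all genes called higher and 7.61% called lower. CBA/J and C57L/J lungs differed in 7 members, 6 higher and 1 lower in CBA/J, compared with 4.98% and 6.25% of all genes. C57L/J and C57BL/6J lungs differed in 2 members (5.35% of all genes were called), both lower in C57L/J, compared with 2.79% of all genes called lower and 2.56% called higher. Adamts15 stood out in CBA/J, where its log2 intensities ran between 11.54 and 12.53 with a median of 11.75, against 8.98 to 10.75 with a median of 10.12 in C57L/J and 9.53 to 10.59 with a median of 10.20 in C57BL/6J. The CBA/J arrays did not overlap those of either other strain. The level was 3.43-fold that of C57BL/6J (1.78 ± 0.18, adjusted p = 1.19e-07) and 3.60-fold that of C57L/J (1.85 ± 0.18, adjusted p = 6.27e-08). A difference between strains in the sequence under the probes can also change intensity, and this was not tested.

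Collagen VI chain Col6a3 was also highest in CBA/J, with log2 intensities of 12.04 to 12.68 (median 12.38), against 11.67 to 12.21 (median 11.95) in C57L/J and 11.65 to 12.14 (median 12.00) in C57BL/6J. The difference was 0.41 ± 0.09 from C57BL/6J (adjusted p = 0.00189) and 0.43 ± 0.09 from C57L/J (adjusted p = 0.00122), while Col6a1 and Col6a2, which assemble with it, were not called. Mmp2 was 0.38 ± 0.09 higher in CBA/J than in C57BL/6J (adjusted p = 0.0062) and 0.41 ± 0.09 higher than in C57L/J (adjusted p = 0.00353). Without the 9 arrays with skeletal muscle transcripts the Mmp2 differences were 0.28 (adjusted p = 0.272) and 0.35 (adjusted p = 0.0997).

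C57L/J lungs were low in Mmp12 and Timp3. Mmp12 ran between 5.44 and 6.42 with a median of 6.17 in C57L/J, against 6.47 to 7.94 with a median of 7.31 in C57BL/6J, so that the arrays did not overlap (-1.19 ± 0.23, adjusted p = 0.00192). The C57L/J levels of Mmp12 lay around 6, the limit of the filter on low values. A sequence difference under the probes was not tested for this gene either. In CBA/J it was 1.23 ± 0.23 above C57L/J over the doses (adjusted p = 0.000536), and the gap varied with dose, since Mmp12 averaged 8.31 in CBA/J and 6.19 in C57L/J at 0 Gy, 6.68 and 6.18 at 12.5 Gy, and 7.13 and 6.08 at 15 Gy. Timp3 ran between 12.29 and 13.28 with a median of 12.95 in C57L/J, against 12.55 to 13.97 with a median of 13.55 in C57BL/6J (-0.51 ± 0.13, adjusted p = 0.0189). In CBA/J Timp3 ran between 13.44 and 14.00, above every C57L/J array (0.80 ± 0.13, adjusted p = 7.56e-05). The remaining calls between CBA/J and C57L/J were Col5a2, 0.27 ± 0.09 higher (adjusted p = 0.0495), and Mmp14, lower by -0.28 ± 0.08 (adjusted p = 0.0308). The Mmp14 direction did not hold in sham lungs, where it averaged 10.46 in CBA/J and 10.44 in C57L/J (0.0237, adjusted p = 0.944 on sham arrays alone). At 12.5 Gy it averaged 10.33 in CBA/J and 10.94 in C57L/J. The Col5a2 call was lost when any of 18 arrays was left out and the Mmp14 call with any of 8. Without the 9 arrays with skeletal muscle transcripts neither was called (adjusted p = 0.226 for Col5a2 and 0.201 for Mmp14). Lum was 1.48 higher in CBA/J than in C57BL/6J without the 9 arrays with skeletal muscle transcripts (adjusted p = 0.0093), and 1.30 higher with them (adjusted p = 0.0999).

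**Figure D5:**
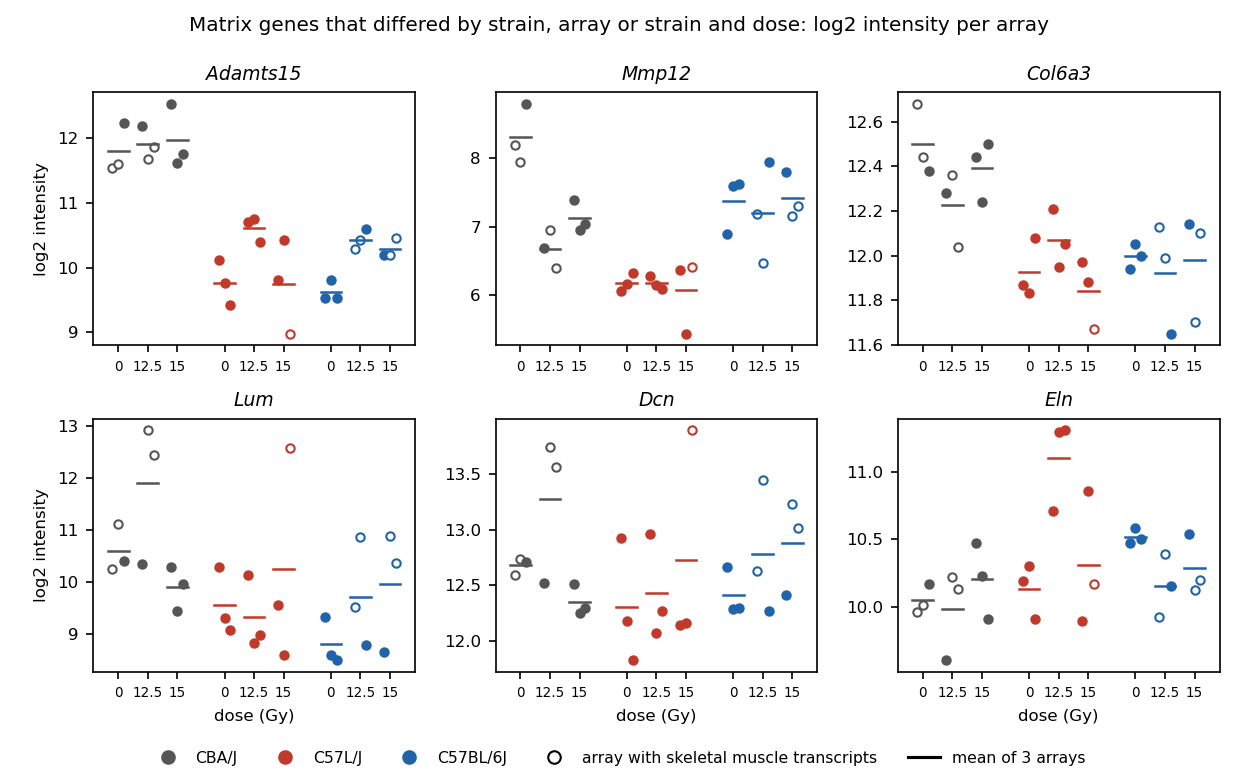
Log2 intensity per array (vertical axis, own scale for each gene) against dose in Gy for 6 genes that differed by strain, by array or by strain and dose, with colours for strains, open circles for arrays with skeletal muscle transcripts and bars for the mean of 3 arrays. CBA/J lies above the others for Adamts15, C57L/J below for Mmp12, and elastin is highest in C57L/J at 12.5 Gy. The highest points of Lum and Dcn are open circles, although open and filled circles overlap.

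Other matrix and TGF-beta genes, taken from lists of related function, moved in both directions with dose. Of 16 other matricellular proteins and proteoglycans, 1 was higher and 3 were lower at 15 Gy, and 1 and 4 at 12.5 Gy, with list medians of -0.12 and -0.11. Over all genes, 4.83% were called higher and 6.94% lower at 15 Gy, and 3.17% and 5.86% at 12.5 Gy. Versican (Vcan), a large proteoglycan of provisional matrix, ran between 8.24 and 9.34 with a median of 9.02 at 15 Gy, against 7.65 to 8.30 with a median of 8.02 at 0 Gy. It was 1.80-fold higher at 15 Gy (0.85 ± 0.15, adjusted p = 0.000331) and 1.58-fold at 12.5 Gy (0.66 ± 0.15), and without the 9 arrays with skeletal muscle transcripts by 0.65 (adjusted p = 0.0368) and 0.41 (adjusted p = 0.237). Ccn2 (connective tissue growth factor), a target of TGF-beta, was lower by -0.56 ± 0.11 at 15 Gy (adjusted p = 0.0016) and -0.55 ± 0.11 at 12.5 Gy, and remained called without the 9 arrays at both doses (adjusted p = 0.0413 and 0.0154). Fibromodulin (Fmod), which binds collagen fibrils, was lower by -0.64 ± 0.17 at 15 Gy and was 1.78 ± 0.17 higher in CBA/J than in C57L/J and 1.17 ± 0.17 higher than in C57BL/6J.

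Of 32 measured genes of the TGF-beta pathway, 1 was higher and 4 were lower at 15 Gy, beside 4.83% and 6.94% of all genes, and 2 were higher at 12.5 Gy, beside 3.17%. Id1, an inhibitor of transcription factors that bone morphogenetic proteins induce, was 0.56 ± 0.15 higher at 15 Gy (adjusted p = 0.0132) and 0.63 ± 0.15 at 12.5 Gy (adjusted p = 0.00676). The transcription factors Zeb1, Zeb2 and Snai2 were lower at 15 Gy, by -0.36 ± 0.08, -0.42 ± 0.12 and -0.74 ± 0.20, and so was the receptor Bmpr2 (-0.25 ± 0.08). The SMAD genes did not pass at either dose. Of 13 genes of elastic fibres and microfibrils, 2 were lower at each dose, beside 6.94% of all genes at 15 Gy and 5.86% at 12.5 Gy. They were Ltbp3 (-0.33 ± 0.08 at 15 Gy) and Ltbp4 (-0.47 ± 0.11 at 15 Gy), which encode latent TGF-beta binding proteins. Tgfbi, a matrix protein that TGF-beta induces, was lower by -0.78 ± 0.12 in CBA/J than in C57BL/6J.

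The dose calls of the next lists stand beside 3.17% of all genes called higher and 5.86% lower at 12.5 Gy, and 4.83% and 6.94% at 15 Gy. Of 15 other collagens, Col8a1, a chain of short-chain collagen VIII, was the only call with dose over the strains, 0.67 ± 0.14 higher at 12.5 Gy (adjusted p = 0.00299). It was much lower in CBA/J, where it ran between 6.89 and 8.83, against 8.89 to 9.66 in C57L/J and 8.76 to 9.67 in C57BL/6J (-1.55 ± 0.14 from C57L/J and -1.37 ± 0.14 from C57BL/6J). Of 15 genes of collagen processing, lysyl hydroxylase Plod1 was higher at 12.5 Gy (0.28 ± 0.08) and transglutaminase Tgm2 lower at 15 Gy (-0.25 ± 0.07). Of 13 genes of the basement membrane, perlecan (Hspg2) was lower at 15 Gy (-0.58 ± 0.11, adjusted p = 0.000636) and none passed at 12.5 Gy. Nidogen 1 (Nid1), which links laminin to collagen IV, was lower in C57L/J, where it ran between 10.83 and 11.50, against 12.03 to 12.45 in C57BL/6J (-0.91 ± 0.08). In CBA/J it ran between 12.10 and 12.50, 1.02 ± 0.08 above C57L/J. Of 20 other proteases and inhibitors, neutrophil collagenase Mmp8 was higher at both doses (1.08 ± 0.26 at 12.5 Gy, 0.95 ± 0.26 at 15 Gy), Adamts9 was higher at 12.5 Gy (0.59 ± 0.14), and Adamts1 was lower at 15 Gy (-0.34 ± 0.09). Gelatinase B (Mmp9) was lower by -1.54 ± 0.21 in CBA/J than in C57BL/6J. Without the 9 arrays with skeletal muscle transcripts Id1 (at both doses), Hspg2 and Ltbp3 at 15 Gy, and Col8a1 and Mmp8 at 12.5 Gy were still called, whereas Fmod, Ltbp4, Zeb1, Zeb2, Snai2, Bmpr2, Tgm2, Adamts1 and Mmp8 at 15 Gy and Plod1 and Adamts9 at 12.5 Gy were not. Vcan, Id1, Zeb1, Snai2, Bmpr2, Mmp8, Adamts1 and Krt13 were named after their values were seen.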

How the data were processed

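RNA of 27 mouse lungs was measured on Affymetrix Mouse Genome oligonucleotide arrays, 1 array per mouse and 3 mice per strain and dose, hybridized in a single batch according to the study's methods. Deposited values were linear intensities, 1 for each probe set, and the processing notes name Affymetrix Expression Console 1.1. A trimmed mean (2%) of 500 was found on every array, so the intensities were already scaled and were normalized no further. The algorithm by which probes were summarised was not stated in any source read here. Values had been planned as log2 and were linear, so intensities were floored at 1 and log2 was taken. Of 45101 probe sets, 34958 had 1 gene symbol (34754 of them a current one), 932 had several and 9211 had none. The brightest probe set by mean over the 27 arrays stood for each of 18194 genes, and the 36 measured members had 80 probe sets in all. Columns of no sample numbered 0. The number of arrays limits the precision. The p-values weigh a difference against the spread between arrays that a fit leaves. With additive strain and dose terms that spread also holds any strain by dose differences.

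Groups were compared in limma 3.58.1 (lmFit, eBayes) under R 4.3.3, with p-values adjusted over all genes, either on the 6 arrays of 2 groups or on all 27 arrays with strain and dose. Standard errors and 95% intervals are those of limma. The fits were run before use on simulated arrays with known changes, where coverage of the intervals was not a condition of passing. The simulated arrays had independent noise for each gene, and none was set apart by skeletal muscle transcripts. An array was taken to carry skeletal muscle transcripts where the mean of Ckm and Acta1 lay over 2 above its median on the log2 scale. Every measured member is accounted for in its role, and members called in any comparison, with others fixed by name, have their values given. Of other lists up to 3 genes with the lowest adjusted p were named, with exceptions stated. The members and lists were chosen with earlier results of these data known. Alternatives were the random variance t test, one fit of all 27 arrays, eBayes with trend and robust settings, an unadjusted p under 0.01, a floor of 32, a filter on low values, quantile normalization, median-centring, the mean of probe sets, the replicate number as a block, sham arrays alone, leaving out or adjusting for skeletal muscle, and each array left out. Testing probe sets in place of genes was added after the data were seen. Promoters are those of RefSeq on GRCm38.p6. Figures were drawn with matplotlib 3.10.9 in Python 3.11.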

Additional observations from a re-analysis of the deposited data

How the results depend on the processing

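Counts of members called moved as follows, and for most settings the share of all genes called is not given. In one fit of all 27 arrays 2 and 3 were called for CBA/J at 12.5 and 15 Gy, 4 and 1 for C57L/J and 1 and 1 for C57BL/6J. At an unadjusted p under 0.01 they were 2 and 4, 6 and 2, and 1 and 2 in the same order, and 4 for the interaction. With trend and robust settings 4 were called in CBA/J at 15 Gy, and at 12.5 Gy 7 in C57L/J and 1 in C57BL/6J. A floor of 32 gave 2 in CBA/J at 15 Gy and 2 in C57L/J at 12.5 Gy, and a low-value filter 2 and 3. Over the strains at 15 Gy 8 members became 5 with median-centring, 5 with the mean of probe sets and 3 without arrays with skeletal muscle transcripts. In CBA/J at 15 Gy 1 became 0 without them, with a muscle covariate and with the replicate block. CBA/J against C57L/J fell to 4 without these arrays, and CBA/J against C57BL/6J came to 5 with the covariate. Sham arrays alone gave 0 for C57L/J against C57BL/6J, 1 for CBA/J against C57BL/6J and 2 for CBA/J against C57L/J, and median-centring gave 1 for C57L/J against C57BL/6J. Probe sets in place of genes gave 2 at 12.5 Gy over the strains and 6 for CBA/J against C57BL/6J. With each array left out, counts ranged from 2 to 4 at 12.5 Gy and 6 to 9 at 15 Gy over the strains, 2 to 3 for C57L/J against C57BL/6J, 3 to 5 for CBA/J against C57BL/6J, 5 to 7 for CBA/J against C57L/J, and 0 to 0 elsewhere. Timp2 reversed at 12.5 Gy with the mean of probe sets (log2 difference 0.0153, adjusted p = 0.962), and Mmp14 reversed between CBA/J and C57L/J on sham arrays alone (0.0237, adjusted p = 0.944). The cause was not tested.

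Replicate numbers were checked for pairing. Correlations of same-numbered arrays ran between -0.07 and 0.25, no comparison had all over 0.1, and every array was closest to its own number for 12.5 against 0 Gy in CBA/J and C57L/J and in no other comparison. With the replicate number as a block the counts were 3 at 12.5 Gy and 7 at 15 Gy over the strains, 6 for CBA/J against C57L/J, 0 in each strain and 0 for the interaction, 2 for C57L/J against C57BL/6J and 3 for CBA/J against C57BL/6J. In C57L/J at 12.5 Gy no array carried skeletal muscle transcripts, so leaving them out was not run there. In CBA/J at 12.5 Gy it left 1 array against 1, which was fitted with all 18 arrays and assumes that they vary like the others.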
